A study of Sus scrofa with 15 samples.

Results

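HOX genes encode homeodomain transcription factors that lie in the HOXA, HOXB, HOXC and HOXD clusters and carry a paralogue number for their place in the cluster. They were described here in pig corpus cavernosum, the erectile tissue of the penis, by RNA sequencing, as every row of the deposited tables whose symbol is HOX, a cluster letter from A to D and a number. This rule found 36 of the 26654 genes, with 11 in HOXA, 8 in HOXB, 9 in HOXC and 8 in HOXD. HOXB4, HOXB9 and HOXD4 were not analysed here. The 15 libraries form 5 groups of 3, labelled normal tissue, defect, implantation A and B, and ECs+ implantation. By the series' design, normal, defect and implantation A were meant to be compared pair by pair, and ECs+ implantation with implantation B. All 15 samples carry the same tissue label, and the labels give no strain, sex, age, time point or animal number, spell out neither the injury nor the implant nor the letters ECs, and do not say how implantation A and B differ. A second description line of each ECs+ implantation sample names a normal library, so that group rests on its titles and column names. The labels do not state whether the 3 libraries of each group are from different animals, and the p-values measure only how much these libraries vary, which could be technical.

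In the embryo, HOX genes with low paralogue numbers, at the 3′ end of a cluster, are active toward the head, and those with high numbers, at the 5′ end, toward the tail and the tips of the limbs. Adult fibroblasts and smooth muscle keep part of this pattern, so the HOX transcripts of a connective tissue are read as a record of where on the body its stroma arose. HOXA13 and HOXD13 are needed for the outgrowth of the genital tubercle, from which the penis forms.

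On Sscrofa11.1, the HOXA genes lie on chromosome 18 between 45373340 and 45480306, the HOXB genes on chromosome 12 between 24784953 and 24950661, the HOXC genes on chromosome 5 between 19151096 and 19268267, and the HOXD genes on chromosome 15 between 81893997 and 81990026. Several gene models share bases. HOXA3 overlaps HOXA4, HOXA5 and HOXA6, HOXA5 overlaps HOXA6, and HOXD9 overlaps HOXD10 and HOXD11. HOXA3, HOXA7, HOXA9, HOXA10, HOXB3, HOXB5, HOXB6, HOXC5, HOXC6, HOXC8 and HOXC9 each overlap at least 1 noncoding gene. The strand setting of the counting is not stated in the labels, so the split of reads between such partners is uncertain.

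Total counts ran from 17234169 to 19644793 in 13 libraries and were 207769 in defect 1 and 250178 in defect 2. These shallow libraries held 106 and 151 HOX counts, against 10495 in defect 3 and 12598 to 20688 in the libraries of the other groups. A gene with 3 counts, the level below which a count of 0 says little, corresponds to 14.4 and 12 CPM (counts scaled to library size) in defect 1 and 2 and to 0.169 CPM in defect 3, before TMM scaling. These limits cover counting error only. Values for the defect group therefore rest mainly on defect 3. Summed transcripts of 8 smooth muscle markers stood at 2568 to 5908 CPM and of 8 endothelial markers at 1532 to 4191 CPM over all 15 libraries, so both marker lists were detected in every group. These lists alone do not identify the tissue. In bulk tissue, fewer cells of a type and less RNA per cell cannot be told apart.

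Levels of different genes were compared as TPM, the deposited values scaled to gene length as well as library size. In normal tissue the members with the highest TPM were HOXA5 at 89.3 ± 3.62, HOXA10 at 72.2 ± 1.61, HOXD9 at 65.4 ± 1.38, HOXB2 at 42.5 ± 8.38, HOXB7 at 37.4 ± 2.71, HOXA6 at 33.5 ± 1.55, HOXB6 at 31.2 ± 2.97 and HOXD13 at 30.4 ± 0.913 (mean ± SD, n = 3). The leading genes thus came from HOXA, HOXB and HOXD, and from the middle and the 5′ side of the clusters apart from HOXB2, which lies on the 3′ side. From HOXB2 to HOXD13, neighbours in this order differed by less than the sum of their SDs. At the 3′ end, HOXB1 and HOXD1 were at or under 1 TPM in every normal library and HOXA2 had a mean of 0.677 ± 0.148 TPM, while HOXB2, its counterpart in the HOXB cluster, was among the leaders. HOXB2 and HOXA2 pattern the hindbrain in the embryo. Summed over all members, HOX transcripts stood at 1028 to 1084 CPM in normal, 495.5 to 702.4 in defect, 805 to 817.1 in implantation A, 821.6 to 838.5 in implantation B and 881.1 to 885 in ECs+ implantation (TMM-scaled), so normal libraries were highest.

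**Figure D1:**
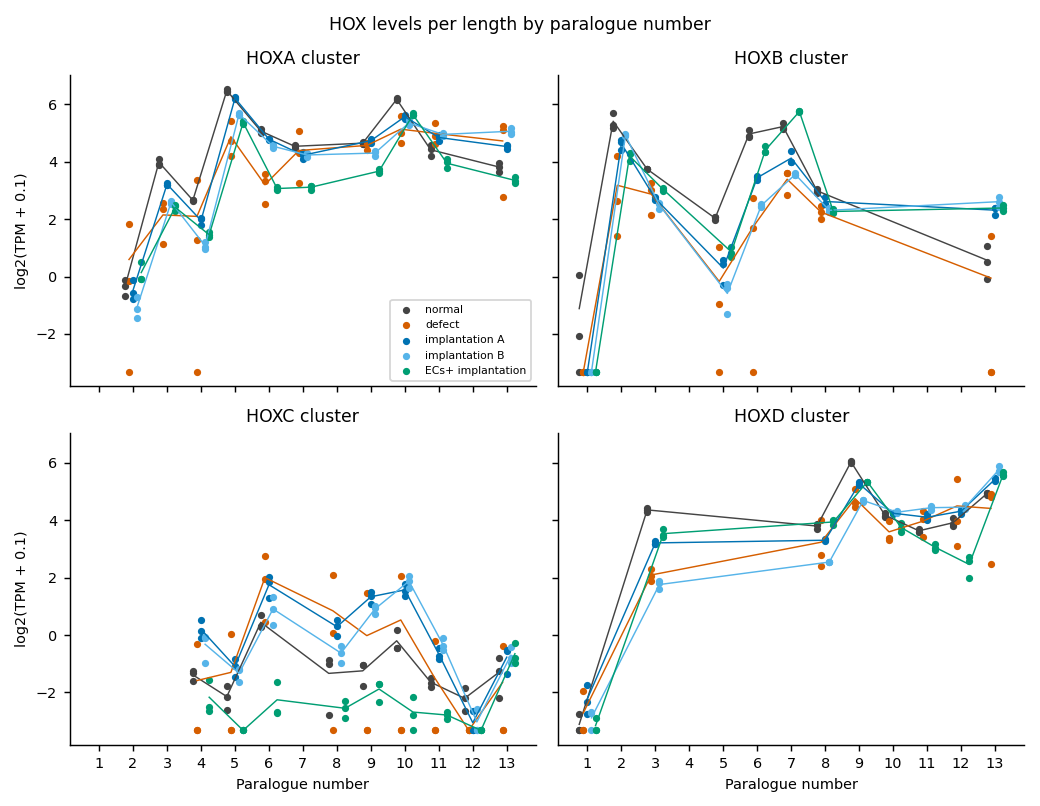
HOX levels per length in each library by paralogue number and cluster, on a log2(TPM + 0.1) axis; each point is a library and each line joins a group's mean TPM, logged after averaging. HOXC lies far under the other clusters, and the ECs+ implantation libraries are lowest over most of it.

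Each cluster's share of the summed HOX TPM differed between groups. HOXA held 48.8% ± 0.821, HOXB 22.3% ± 0.939, HOXD 28.4% ± 0.456 and HOXC 0.595% ± 0.116 in normal tissue (SD, n = 3). HOXC was the smallest share in every group, with 2.72% ± 1.55 in defect, 2.43% ± 0.116 in implantation A, 2.19% ± 0.222 in implantation B and 0.27% ± 0.0757 in ECs+ implantation. The HOXB share was 10.7% ± 3.08 in defect, 14.2% ± 1.03 in implantation A and 14.2% ± 0.328 in implantation B, all under normal, and 27.4% ± 0.881 in ECs+ implantation. Taken from CPM, without gene length, the HOXB share of implantation B was 9.17%. Paralogues 9 to 13 together held 44.7% ± 1.05 in normal, 62.3% ± 12.3 in defect, 54.8% ± 0.475 in implantation A, 62% ± 0.549 in implantation B and 50.9% ± 0.541 in ECs+ implantation. Their share was higher in all libraries of the other 4 groups (49% at the lowest) than in the normal library with the highest share (45.8%). The 49% is that of defect 1, which held 106 HOX counts, so its distance from normal cannot be judged. Among the deep libraries of these groups the lowest share was 50.3%, in ECs+ implantation 1.

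A few members were too low to judge. HOXB1 had 8 counts over the 15 libraries, all in normal tissue, HOXC12 had 8, HOXD1 had 14 and HOXC5 had 49, and the filter on low counts removed them from every comparison. HOXC8 was also removed where ECs+ implantation was set against implantation B, with 6 and 34 counts. That left 32 members tested in 4 comparisons and 31 in that one. The other HOXC genes were also low, at 0.0520 to 5.39 CPM in the deep libraries in which they had a count, and their fold changes have wide errors.

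**Figure D2:**
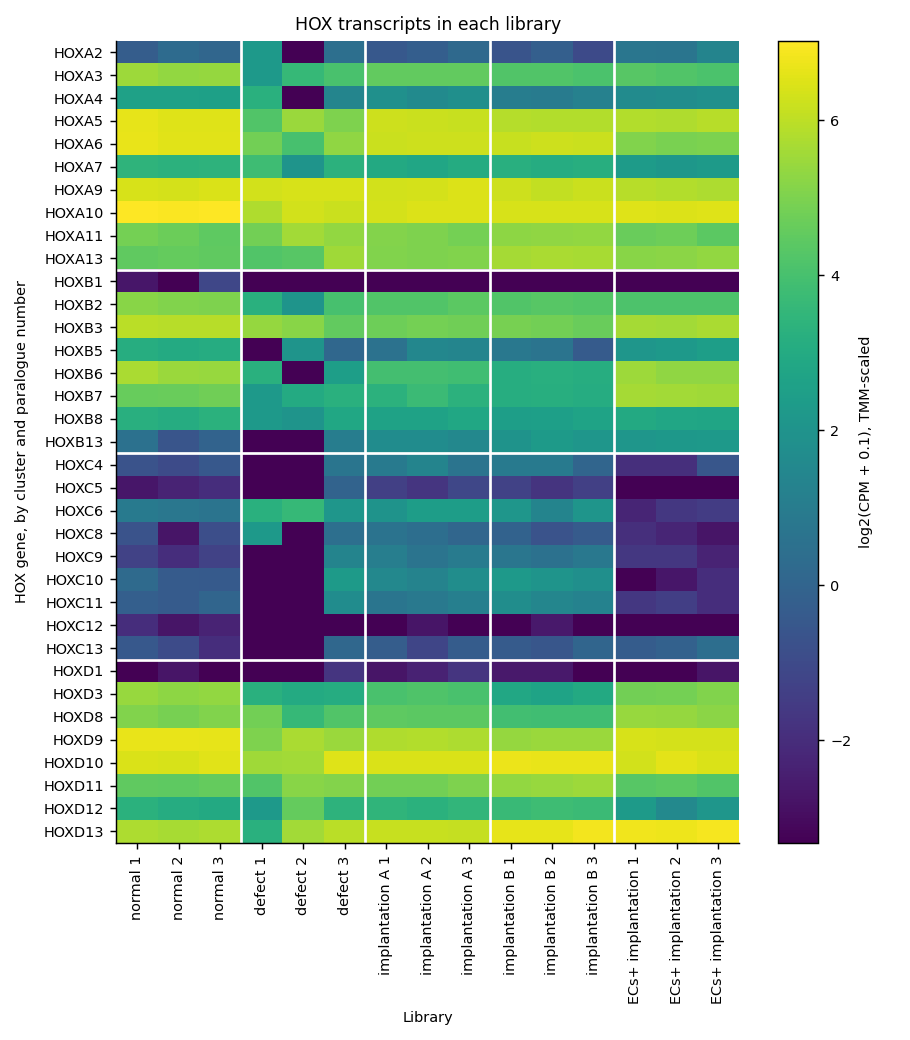
35 HOX genes in each of the 15 libraries, as log2(CPM + 0.1) with TMM scaling; rows run by cluster and paralogue number, columns by group, and white lines part clusters and groups. HOXC rows are dark in the ECs+ implantation libraries, and defect 1 and 2 show many zeros that their depth allows.

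Within HOXD, where the genes run from HOXD13 at the 5′ end to HOXD1 at the 3′ end, the order of the groups differed between the ends. HOXD3, a gene of neck and vertebral patterning, stood at 43.1, 38.6 and 41.1 CPM in normal, 9.35, 8.01 and 8.3 in defect, 16.7, 17.9 and 16.6 in implantation A, 7.35, 6.33 and 7.71 in implantation B and 28.5, 29.1 and 33.9 in ECs+ implantation. The measured values of the 5 groups did not overlap: normal was highest, ECs+ implantation next, then implantation A, defect and implantation B. Defect 1 and 2 held 2 counts each, so the place of defect next to implantation B rests on defect 3 and was not tested. HOXD9, a gene of trunk and limb patterning, stood at 104, 102 and 98.7 CPM in normal, 32.7, 52.05 and 43.97 in defect, 55.7, 57.6 and 54.1 in implantation A, 41.7, 44.02 and 43.7 in implantation B and 83.6, 83.1 and 82.6 in ECs+ implantation. Normal and ECs+ implantation were again the highest, and defect overlapped implantation B. At the other end, HOXD12 stood at 9.64, 8.32 and 7.78 CPM in normal, 4.67, 24.02 and 10.2 in defect, 10.9, 9.65 and 10.99 in implantation A, 12.8, 14.02 and 13.3 in implantation B and 4.87, 2.8 and 4.28 in ECs+ implantation. The ECs+ implantation libraries were lower than all normal and implantation libraries, implantation B was higher than both normal and implantation A, and the shallow defect libraries spread over the whole range. HOXD13, the terminal gene, stood at 54.04, 51.6 and 54.6 CPM in normal, 9.35, 48.05 and 61.8 in defect, 72.2, 71.1 and 68.7 in implantation A, 98.8, 99.5 and 113 in implantation B and 112, 108 and 119 in ECs+ implantation. Implantation B and ECs+ implantation overlapped and were highest, implantation A lay between them and normal, and defect 1 and 2 lay under normal, on 2 and 12 counts, with defect 3 above it. Of the other members, HOXD8 ran from 14.4 to 42.6 CPM in the deep libraries and was highest in ECs+ implantation, HOXD11 from 18.6 to 45.3 and was highest in implantation B, and HOXD10, the closest between groups, from 79.9 to 107.

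In HOXB, HOXB3, HOXB5, HOXB6 and HOXB7 were highest in normal and ECs+ implantation, and HOXB2 in normal alone. HOXB2 stood at 36.7, 33.2 and 32.2 CPM in normal, 9.35, 4.004 and 15.9 in defect, 18.7, 18.7 and 21.6 in implantation A, 18.7, 20.3 and 19.1 in implantation B and 17.5, 17.6 and 17.3 in ECs+ implantation. Normal libraries were the highest, defect the lowest, and implantation A and B overlapped, with ECs+ implantation just under them. HOXB5, which takes part in the patterning of lung and gut, stood at 8.54, 8.01 and 8.5 CPM in normal, 0, 4.004 and 1.004 in defect, 1.4, 2.7 and 2.49 in implantation A, 1.65, 1.5 and 0.695 in implantation B and 4.21, 4.62 and 5.43 in ECs+ implantation. Normal was highest and ECs+ implantation next, above implantation A and B and defect 3. Defect 1 and 2 held 0 and 1 counts, too few to place them. HOXB6 stood at 51.7, 44.4 and 43.2 CPM in normal, 9.35, 0 and 5.42 in defect, 15.1, 15.4 and 14.3 in implantation A, 8.57, 9.13 and 8.75 in implantation B and 46.03, 39.5 and 39.1 in ECs+ implantation. Normal and ECs+ implantation overlapped, all implantation A libraries were lower, and implantation B and defect lower still. HOXB7 stood at 24.3, 25.2 and 27.6 CPM in normal, 4.67, 8.01 and 9.5 in defect, 10.1, 13.1 and 10.1 in implantation A, 8.57, 8.87 and 8.4 in implantation B and 48.9, 48.1 and 46.6 in ECs+ implantation. Here ECs+ implantation was above normal, and the other 3 groups were under it without overlap. HOXB13, a marker of the hindmost body and of the prostate, went the other way, at 1.36, 0.572 and 0.876 CPM in normal, 0, 0 and 2.01 in defect, 3.19, 3.2 and 2.75 in implantation A, 3.86, 4.89 and 4.29 in implantation B and 4.21, 4.45 and 4.8 in ECs+ implantation. Implantation B and ECs+ implantation overlapped and were highest, implantation A was next, and defect 3 lay between implantation A and normal. HOXB3, at 22.9 to 61.8 CPM in the deep libraries, was highest in normal and next in ECs+ implantation, and HOXB8, at 5.51 to 9.64 CPM, was highest in normal.

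In HOXA, HOXA5 and HOXA10 were highest in normal, and HOXA13 and, among the deep libraries other than defect 3, HOXA11 in implantation B. HOXA5, which patterns the lower neck and the lung, stood at 99.5, 92.2 and 92.5 CPM in normal, 18.7, 44.04 and 32.6 in defect, 75.4, 72.6 and 71.6 in implantation A, 59.3, 57 and 56.9 in implantation B and 56.3, 55.9 and 59.6 in ECs+ implantation. Normal was highest, implantation A next, implantation B and ECs+ implantation overlapped, and all defect libraries were lower. HOXA10 and HOXA11 pattern the reproductive tract. HOXA10 stood at 130.4, 126 and 128 CPM in normal, 56.1, 80.1 and 73.8 in defect, 82.6, 89.04 and 88.1 in implantation A, 83.8, 84.1 and 85.02 in implantation B and 91.4, 90.3 and 91.8 in ECs+ implantation. Normal was again highest and defect lowest, with the implanted groups between. HOXA11 stood at 28.7, 26.1 and 21.6 CPM in normal, 28.1, 48.05 and 41.2 in defect, 34.04, 32.4 and 29.4 in implantation A, 38.7, 39.9 and 41.1 in implantation B and 25.1, 26.3 and 21.1 in ECs+ implantation. Normal and ECs+ implantation overlapped here, and implantation A and B were above them. HOXA13 stood at 22.3, 24.1 and 22.6 CPM in normal, 18.7, 20.02 and 46.4 in defect, 33.6, 32.7 and 33.9 in implantation A, 49.05, 52.2 and 50.4 in implantation B and 36.7, 37.9 and 41.2 in ECs+ implantation. Implantation B was highest and normal the lowest of the deep libraries, and defect 1 and 2 lay under normal while defect 3 lay between ECs+ implantation and implantation B. In TPM the order of HOXA13 was another, at 14.1, 15.6 and 12.5 TPM in normal, 6.75, 38.2 and 34.2 in defect, 23.9, 23.3 and 21.9 in implantation A, 35.9, 31.5 and 32.7 in implantation B and 9.5, 9.97 and 10.8 in ECs+ implantation, so that ECs+ implantation was under normal in TPM and above it in CPM. Some other orders given in CPM also differed in TPM. Normal and ECs+ implantation did not overlap in HOXA11 (18.18 to 23.89 and 13.51 to 16.82 TPM) or HOXB6 (29.21 to 34.66 and 20.03 to 23.15). Implantation B and ECs+ implantation did not overlap in HOXA5 (49.72 to 51.6 and 39.99 to 43.09 TPM) or HOXD13 (51.59 to 59.45 and 46.63 to 51.31). HOXA10 in defect, at 25.31 to 48.06 TPM, overlapped implantation A and B, and HOXA5 in defect, at 18.35 to 42.64, overlapped ECs+ implantation. In HOXB2, implantation A and B did not overlap (21.36 to 27.13 and 29.55 to 30.87 TPM). Defect and ECs+ implantation did overlap there (2.568 to 18.28 and 16.29 to 19.48). In HOXB13, implantation A overlapped ECs+ implantation (4.373 to 5.154 and 4.77 to 5.526). Over the 13 deep libraries, HOXA3 ran from 16.6 to 45.6 CPM, HOXA4 from 1.89 to 6.03 and HOXA6 from 30.9 to 103, all highest in normal. HOXA2 ran from 0.406 to 2.46 CPM and was highest in ECs+ implantation, and HOXA7, from 4.39 to 10.6, and HOXA9, from 54.0 to 88.8, were lowest there.

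HOXC genes pattern the trunk in the embryo, and those at the 5′ end the lower back and hind limb. HOXC4 stood at 0.524, 0.416 and 0.619 CPM in normal, 0, 0 and 1.54 in defect, 1.84, 2.45 and 1.48 in implantation A, 1.78, 1.76 and 0.927 in implantation B and 0.164, 0.165 and 0.575 in ECs+ implantation. Implantation A and B were above normal, which ECs+ implantation overlapped. HOXC6 stood at 1.78, 1.61 and 1.5 CPM in normal, 9.35, 12.01 and 4.28 in defect, 3.87, 5.35 and 5.39 in implantation A, 4.23, 2.48 and 4.12 in implantation B and 0.11, 0.22 and 0.261 in ECs+ implantation. The values of defect 1 and 2 are 2 and 3 counts, and ECs+ implantation was under all other libraries. HOXC8 stood at 0.524, 0.052 and 0.464 CPM in normal, 4.67, 0 and 1.27 in defect, 1.45, 1.25 and 0.967 in implantation A, 0.857, 0.522 and 0.695 in implantation B and 0.164, 0.11 and 0.0522 in ECs+ implantation. Implantation A was above normal, and implantation B overlapped it. HOXC9 stood at 0.315, 0.156 and 0.309 CPM in normal, 0, 0 and 2.48 in defect, 2.08, 1.5 and 1.88 in implantation A, 1.59, 1.37 and 1.68 in implantation B and 0.219, 0.22 and 0.104 in ECs+ implantation. Implantation A and B overlapped each other well above normal, which was close to ECs+ implantation. HOXC10 stood at 1.1, 0.676 and 0.67 CPM in normal, 0, 0 and 4.88 in defect, 2.76, 2.4 and 3.26 in implantation A, 4.65, 4.04 and 3.48 in implantation B and 0, 0.0549 and 0.157 in ECs+ implantation. Implantation B was above implantation A, both were above normal, and the 3 ECs+ implantation libraries held 4 counts in all. HOXC11 stood at 0.786, 0.676 and 0.928 CPM in normal, 0, 0 and 3.21 in defect, 1.55, 1.7 and 2.14 in implantation A, 3.31, 2.61 and 2.32 in implantation B and 0.219, 0.275 and 0.157 in ECs+ implantation, in the same order of groups. HOXC4, HOXC9, HOXC10 and HOXC11 had 0 counts in defect 1 and 2, and HOXC8 had 1 and 0. In TPM, implantation A and B overlapped in HOXC10 (2.459 to 3.365 and 3.048 to 4.064) and HOXC11 (0.4568 to 0.6288 and 0.5902 to 0.8381).

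**Figure D3:**
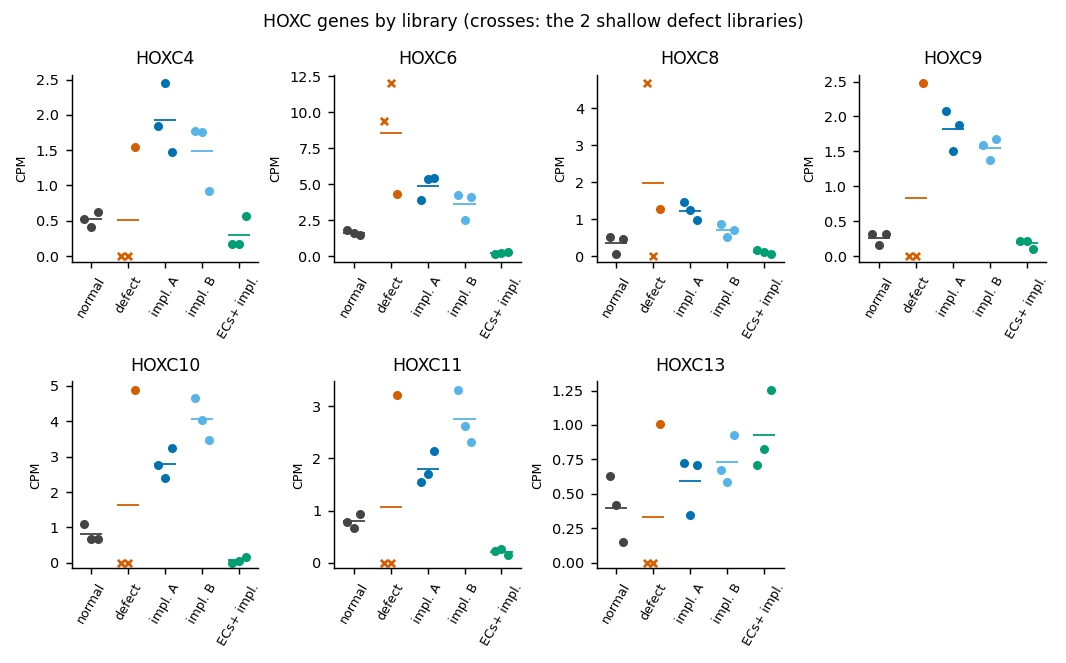
HOXC genes by library in TMM-scaled CPM, with a line at each group's mean and crosses for the shallow defect 1 and 2. Of the genes shown, HOXC13 alone has ECs+ implantation at the highest group mean (0.93 CPM); for the others that group is lowest or close to it.

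Differences between groups were fitted with edgeR across all genes and called at an adjusted p under 0.05. Each count of called HOX genes is set beside the share of all tested genes called in the same direction. Defect was first compared with normal. HOXB5, HOXB6 and HOXD3 were lower in defect, and the HOXC genes were higher, most of them on the evidence of defect 3. In all, 12 HOX genes were higher and 13 lower, of 32 tested, while 32.0% of all genes were higher and 31.9% lower (63.9% in either direction). The median log2 fold change was -0.0208 over the HOX genes and -0.0479 over all genes. By cluster, 3 of 11 HOXA genes were higher and 5 lower, 1 of 7 HOXB genes higher and 5 lower, 7 of 7 HOXC genes higher and 0 lower, and 1 of 7 HOXD genes higher and 3 lower. The largest falls were those of HOXB6, with a log2 fold change of -3.11 ± 0.193 (SE, edgeR adjusted p = 2.47e-30), HOXB5 at -2.99 ± 0.414 (SE, edgeR adjusted p = 2.26e-13) and HOXD3 at -2.30 ± 0.159 (SE, edgeR adjusted p = 2.76e-25). The largest rises were those of HOXC9 at 3.14 ± 0.486 (SE, edgeR adjusted p = 3.29e-09), HOXC10 at 2.49 ± 0.329 (SE, edgeR adjusted p = 8.95e-11) and HOXC11 at 1.92 ± 0.364 (SE, edgeR adjusted p = 2.54e-06). HOXA10 (-0.80, adjusted p = 1.23e-13), HOXD9 (-1.21, adjusted p = 4.09e-20) and HOXB2 (-1.14, adjusted p = 3.99e-12) were lower, and HOXA13 (0.95, adjusted p = 2.19e-12) and HOXD11 (0.59, adjusted p = 4.96e-06) higher. HOXD13 did not pass, at 0.15 ± 0.0991 (SE, edgeR adjusted p = 0.165), but did without defect 1 (0.20, adjusted p = 0.038) or normal 3 (0.19, adjusted p = 0.0346). HOXB13 lost its call without normal 2 (adjusted p = 0.0837) and HOXC13 without defect 1 (0.0509) or normal 3 (0.132). The rises rest on 1 library: without defect 3, 1 HOX gene was called higher (HOXC6) and 10 lower, and HOXC9, HOXC10, HOXC11, HOXC4, HOXC13, HOXB13 and HOXA13 changed sign, all of them but HOXA13 with 0 counts in defect 1 and 2. HOXB5 kept its direction there and lost its call (-1.95, adjusted p = 0.303). Of all 18208 genes tested without defect 3, 1391 were called higher and 2130 lower. With defect 1 and 2 in the fit, DESeq2 called 5 HOX genes higher and limma on log2(TPM + 1) called 0, against 13 and 10 without them, again with defect 3 alone for the group. With defect 3 alone for the group, 13 were higher and 13 lower, but the spread then comes from the other groups and defect 3 is assumed to vary like them, so these calls say nothing of variation within defect, and on the log2(TPM + 1) scale HOXC6 then stood at 0.01.

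Implantation A was next compared with defect. The labels give no animal or time point, so a difference here cannot be assigned to the implant. HOXB6, HOXA5, HOXA6 and HOXD3, middle and 3′ genes that were lower in defect than in normal, were higher in implantation A than in defect. Both comparisons share the defect libraries. Of 32 HOX genes, 10 were higher in implantation A and 4 lower, and of all genes 20.4% were higher and 21.4% lower (41.8% in either direction), with median log2 fold changes of 0.148 and 0.0207. HOXB6 at 1.47 ± 0.197 (SE, edgeR adjusted p = 7.4e-11), HOXA5 at 1.17 ± 0.102 (SE, edgeR adjusted p = 2.91e-17), HOXB5 at 1.06 ± 0.429 (SE, edgeR adjusted p = 0.0241) and HOXD3 at 1.04 ± 0.163 (SE, edgeR adjusted p = 3.65e-08) were higher, as were HOXA6 (0.95, adjusted p = 9.99e-14) and, by smaller steps, HOXD9, HOXD13, HOXA3, HOXA10 and HOXB2. HOXC10 at -0.73 ± 0.273 (SE, edgeR adjusted p = 0.0251), HOXA13 at -0.41 ± 0.108 (SE, edgeR adjusted p = 0.000931) and HOXA11 at -0.36 ± 0.112 (SE, edgeR adjusted p = 0.00585) were lower. By cluster, 4 HOXA genes were higher and 3 lower, 3 HOXB and 3 HOXD genes higher and 0 lower, and 0 of 7 HOXC genes higher and 1 lower. Without defect 3, 4 HOX genes were higher and 0 lower, and HOXA13 and HOXC10 changed sign, while HOXB6 (1.79, adjusted p = 0.222), HOXD3 (0.99, adjusted p = 0.413) and HOXB5 (0.02, adjusted p = 0.994) lost their call. Of all 18208 genes tested in that fit, 935 were called higher and 520 lower. HOXC10, HOXA10, HOXA11, HOXB2, HOXB5 and HOXD13 also lost their call when single other libraries were left out: HOXC10 without implantation A 1 or 2 (adjusted p = 0.0526 and 0.092), HOXA10 without implantation A 2 or 3 (0.0861 and 0.0754), HOXB5 without implantation A 2 or 3 (0.0938 and 0.0665), HOXA11 without implantation A 3 (0.0515), HOXB2 without implantation A 3 or defect 2 (0.149 and 0.0501), and HOXD13 without implantation A 1 or 2 or defect 1 or 2 (0.0861, 0.0717, 0.0526 and 0.0552).

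Implantation A was also set against normal tissue, a comparison of 6 deep libraries. Most HOX genes of paralogues 11 to 13 and of HOXC were higher in implantation A, and most of paralogues 3 to 10 in HOXA, HOXB and HOXD lower. Of 32 HOX genes, 12 were higher and 15 lower, and of all genes 32.2% were higher and 32.3% lower (64.5% in either direction), with median log2 fold changes of -0.299 and -0.0248. Of the paralogues 1 to 3, 0 of 6 were higher and 4 lower, of 4 to 8, 3 of 12 were higher and 9 lower, and of 9 to 13, 9 of 14 were higher and 2 lower. All 7 HOXB genes were called, HOXB13 higher and 6 lower, while 6 of 7 HOXC genes were higher and 0 lower. HOXB5, at -1.93 ± 0.18 (SE, edgeR adjusted p = 2.37e-17), HOXB6 at -1.64 ± 0.0864 (SE, edgeR adjusted p = 1.35e-30) and HOXD3 at -1.26 ± 0.0825 (SE, edgeR adjusted p = 1.22e-24) fell most. HOXC9 at 2.77 ± 0.421 (SE, edgeR adjusted p = 1.06e-10), HOXC4 at 1.87 ± 0.331 (SE, edgeR adjusted p = 1.41e-07) and HOXC8 at 1.79 ± 0.408 (SE, edgeR adjusted p = 2.37e-05) rose most. Of the paralogue 13 genes, HOXB13 at 1.69 ± 0.263 (SE, edgeR adjusted p = 7.01e-09), HOXA13 at 0.53 ± 0.0823 (SE, edgeR adjusted p = 2.47e-08) and HOXD13 at 0.40 ± 0.0691 (SE, edgeR adjusted p = 5.24e-07) were higher, and HOXC13, at 0.596 against 0.4 CPM, did not pass. Along HOXD the log2 fold change went from -1.26 in HOXD3 through -0.59 in HOXD8 and -0.87 in HOXD9 to 0.37 in HOXD11 and 0.29 in HOXD12, while HOXD10, between them, stood at 87.2 against 88.9 CPM and did not pass. Over the 7 HOXD genes tested, the Spearman correlation of log2 fold change with paralogue number was 0.929, given as a description, since these genes share libraries and some share bases. It was 0.418 in HOXA, 0.429 in HOXB and -0.643 in HOXC, so the climb was not shared by all clusters. HOXD12 lost its call without implantation A 1 or 3 or normal 2 or 3 (adjusted p = 0.106, 0.113, 0.0969 and 0.11). DESeq2 called 3 HOX genes higher and limma on log2(TPM + 1) called 0 higher and 5 lower with defect 1 and 2 in the fit, against 11 higher and 15 lower and 13 higher and 15 lower without them.

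Implantation B is not paired with normal tissue in the study's design. It was set against it here because implantation B is otherwise compared with ECs+ implantation alone. The comparison uses the same normal libraries as the 2 above. Again 12 of 32 HOX genes were higher and 15 lower, with 37.1% of all genes higher and 36.7% lower (73.8% in either direction) and median log2 fold changes of -0.221 over the HOX genes and -0.0258 over all. HOXB5 at -2.71 ± 0.238 (SE, edgeR adjusted p = 1.64e-19), HOXD3 at -2.52 ± 0.103 (SE, edgeR adjusted p = 4.85e-37) and HOXB6 at -2.40 ± 0.0984 (SE, edgeR adjusted p = 1.33e-36) fell most. HOXC9 at 2.54 ± 0.448 (SE, edgeR adjusted p = 3.63e-08), HOXC10 at 2.30 ± 0.285 (SE, edgeR adjusted p = 2.85e-12) and HOXB13 at 2.20 ± 0.254 (SE, edgeR adjusted p = 1.82e-13) rose most. HOXA13 at 1.13 ± 0.0734 (SE, edgeR adjusted p = 1.35e-23) and HOXD13 at 0.96 ± 0.0628 (SE, edgeR adjusted p = 8.81e-20) were both higher, by 2.19 and 1.95 times. Of the HOXD genes, HOXD3, HOXD8 and HOXD9 were lower and HOXD10, HOXD11, HOXD12 and HOXD13 higher, and the Spearman correlation of log2 fold change with paralogue number over the 7 was 0.929. The same correlation was 0.573 in HOXA, 0.429 in HOXB and -0.0357 in HOXC. HOXD10, at 0.23 ± 0.0579 (SE, edgeR adjusted p = 0.000435), lost its call without normal 2 or 3 (0.05, adjusted p = 0.48, and 0.10, adjusted p = 0.0698). On the log2(TPM + 1) scale 7 HOX genes were higher with the shallow libraries in the fit and 11 without them. Grouped after the values were seen, the paralogues 11 to 13 had 7 of 8 tested members higher and 0 lower in this comparison, and likewise 7 of 8 and 0 between implantation A and normal.

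**Figure D4:**
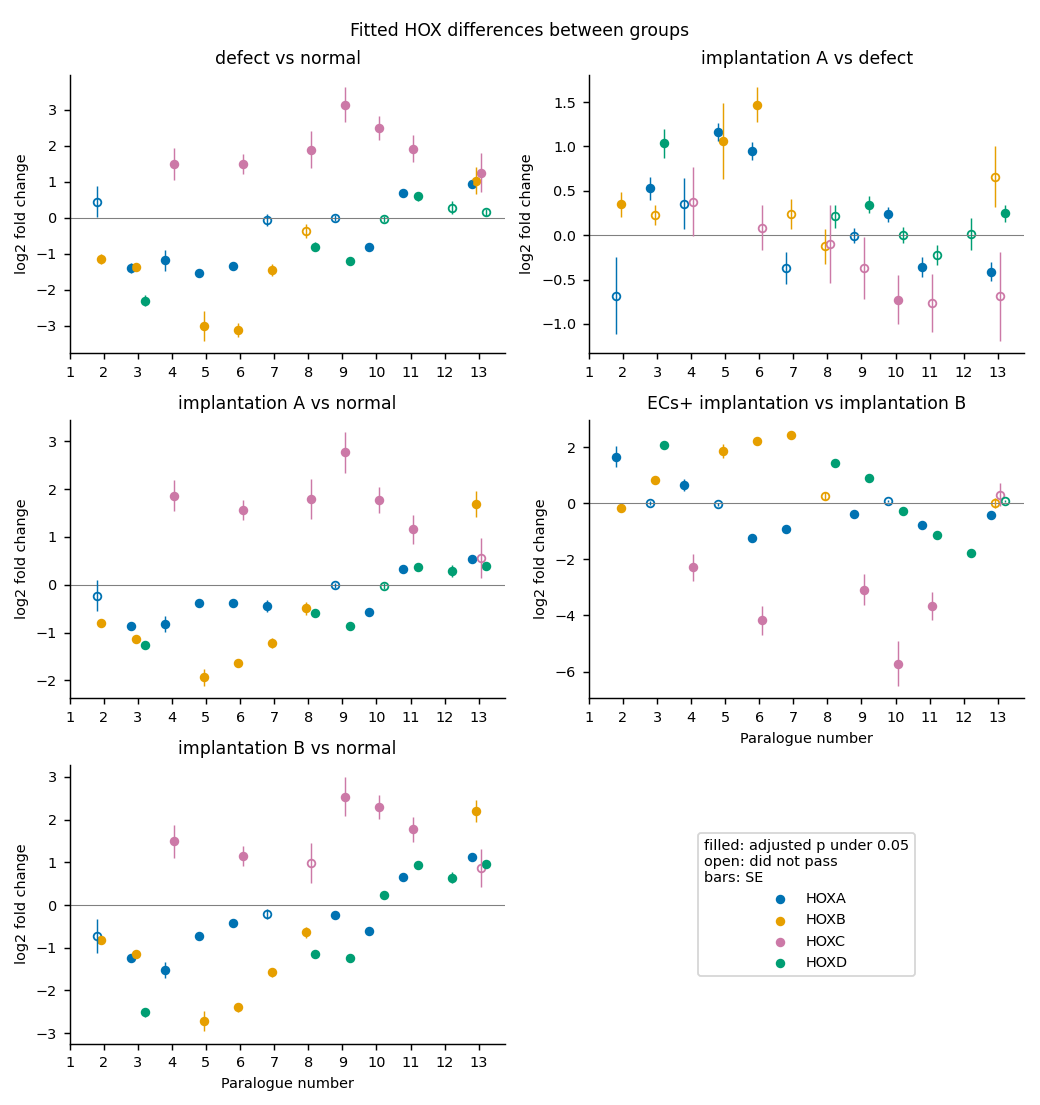
Fitted log2 fold change of the HOX genes tested and reported by name against paralogue number in each comparison, coloured by cluster; bars are SE, filled points passed an adjusted p of 0.05 and open points did not. In HOXD (green) the values mostly climb with paralogue number against normal and mostly fall with it in ECs+ implantation vs implantation B.

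ECs+ implantation was compared with implantation B, the pair set by the series' design. The first label carries ECs+ and the other the letter B. HOXC transcripts were far lower in ECs+ implantation, while HOXB3, HOXB5, HOXB6 and HOXB7 and the 3′ genes of HOXD were higher and HOXD11 and HOXD12 lower. Of 31 HOX genes, 9 were higher and 14 lower, and of all genes 37.8% were higher and 38.1% lower (75.8% in either direction), with median log2 fold changes of 0.00579 and 0.0181. By cluster, 2 of 11 HOXA genes were higher and 5 lower, 4 of 7 HOXB genes higher and 1 lower, 0 of 6 HOXC genes higher and 5 lower, and 3 of 7 HOXD genes higher and 3 lower. HOXC10 at -5.72 ± 0.789 (SE, edgeR adjusted p = 1.65e-16), HOXC6 at -4.18 ± 0.508 (SE, edgeR adjusted p = 4.43e-14) and HOXC11 at -3.66 ± 0.487 (SE, edgeR adjusted p = 5.4e-12) fell most, with HOXC9 at -3.09 ± 0.553 (SE, edgeR adjusted p = 4.57e-08) and HOXC4 at -2.28 ± 0.491 (SE, edgeR adjusted p = 1.06e-05). HOXC13, the 5′ gene that is known for hair and nail, stood at 0.93 against 0.729 CPM and did not pass. HOXB7 at 2.44 ± 0.0858 (SE, edgeR adjusted p = 5.21e-32), HOXB6 at 2.20 ± 0.0923 (SE, edgeR adjusted p = 2.12e-28) and HOXD3 at 2.06 ± 0.104 (SE, edgeR adjusted p = 8.09e-25) rose most. HOXB5 (1.86, adjusted p = 1.11e-09), HOXA2 (1.65, adjusted p = 5.13e-05), HOXD8 (1.44, adjusted p = 6.76e-23), HOXD9 (0.91, adjusted p = 1.01e-22), HOXB3 (0.81, adjusted p = 3.63e-16) and HOXA4 (0.64, adjusted p = 0.00727) were also higher.

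At the 5′ end, ECs+ implantation had lower HOXD12 at -1.78 ± 0.147 (SE, edgeR adjusted p = 6.09e-16), HOXD11 at -1.14 ± 0.0714 (SE, edgeR adjusted p = 3.83e-20) and HOXA11 at -0.76 ± 0.0713 (SE, edgeR adjusted p = 1.15e-13) than implantation B, and 0 of 8 tested paralogues 11 to 13 were higher while 5 were lower. HOXD13 did not pass, at 0.08 ± 0.0454 (SE, edgeR adjusted p = 0.0907). It passed without implantation B 3 (0.15, adjusted p = 0.00411) or without ECs+ implantation 2 (0.12, adjusted p = 0.013). HOXA6 at -1.22 ± 0.0552 (SE, edgeR adjusted p = 5.22e-26) and HOXA7 at -0.91 ± 0.14 (SE, edgeR adjusted p = 8.59e-08) were lower, in the middle of HOXA, whereas their counterparts HOXB6 and HOXB7 were higher. HOXA5 stood at 57.3 and 57.7 CPM and HOXA10 at 91.2 and 84.3 CPM in ECs+ implantation and implantation B, and neither passed. HOXA13 fell by less in counts, at -0.42 ± 0.058 (SE, edgeR adjusted p = 6.88e-09), than in TPM, where the difference was -1.63 on the log2(TPM + 1) scale. HOXB2, at -0.18 ± 0.0851 (SE, edgeR adjusted p = 0.0486), lost its call in 5 of the 6 fits without 1 library, all but that without implantation B 1, with adjusted p from 0.0674 to 0.153. Over the 7 tested HOXD genes the Spearman correlation of log2 fold change with paralogue number was -0.786. It was -0.618 in HOXA, 0.107 in HOXB and 0.143 in HOXC.

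**Figure D5:**
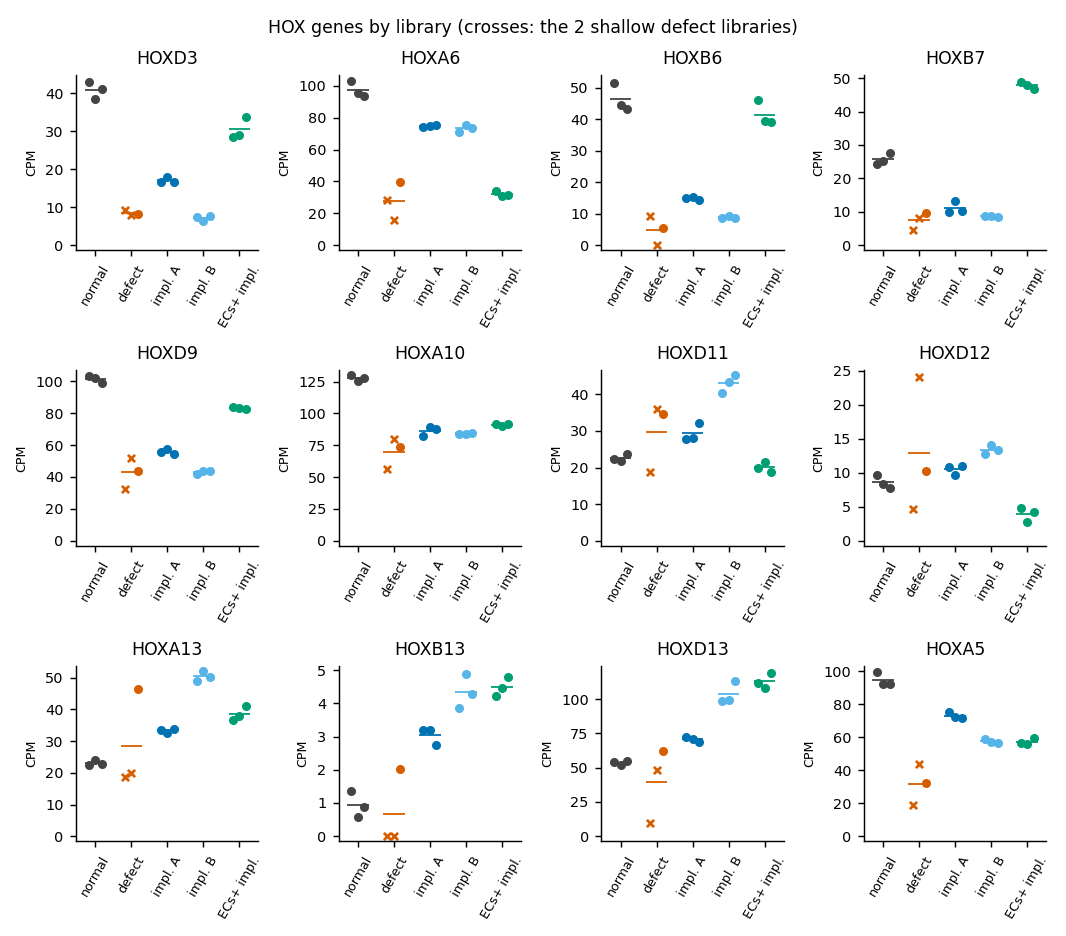
12 HOX genes by library in TMM-scaled CPM, from low to high paralogue number except HOXA5 at the end, with a line at each group's mean and crosses for defect 1 and 2. HOXD3, HOXB6 and HOXD9 are highest in normal and ECs+ implantation, and HOXD13 in implantation B and ECs+ implantation.

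The summed markers of some cell types followed the order of the groups seen for some HOX genes, and those of others did not. Summed transcripts of the epithelial markers, of which 7 of 8 were in the table, stood at 963.3 to 1009 CPM in normal, 2502 to 2642 in defect, 2319 to 2342 in implantation A, 1977 to 2017 in implantation B and 19.1 to 22.1 in ECs+ implantation, where KRT15 had 0 counts. The 10 fibroblast markers summed to 15270 to 15700 CPM in normal, 106000 to 111100 in defect, 63060 to 63180 in implantation A, 109400 to 111300 in implantation B and 12390 to 12440 in ECs+ implantation. In both sums ECs+ implantation was lowest and normal next, as for most HOXC genes. The 8 endothelial markers summed to 4014 to 4191 CPM in normal, 2171 to 2206 in defect, 2172 to 2196 in implantation A, 1532 to 1538 in implantation B and 3565 to 3652 in ECs+ implantation, with normal and ECs+ implantation highest, as for HOXB6 and HOXD3. Macrophage markers summed to 385.4 to 405.4 CPM in normal, 678.6 to 768.9 in defect, 265.5 to 275.8 in implantation A, 708.3 to 717.9 in implantation B and 274.5 to 283.4 in ECs+ implantation. Here ECs+ implantation was under normal and implantation B above it, as for most HOXC genes, but implantation A was under normal, unlike them. Smooth muscle markers summed to 3944 to 4096 CPM in normal, 2568 to 2606 in defect, 5844 to 5908 in implantation A, 2610 to 2637 in implantation B and 3968 to 4126 in ECs+ implantation. With implantation B under normal, this sum did not follow the HOXC order. The fibroblast sum was higher in implantation B than in A, whereas HOXC4, HOXC6, HOXC8 and HOXC9 had higher means in A. The part of these cell types in the HOX differences was not tested.

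TALE homeodomain proteins (PBX, MEIS and PKNOX) bind DNA together with HOX proteins. Of the 9 TALE genes, 2 were higher and 4 lower in defect than in normal, 3 and 2 in implantation A against normal, 4 and 4 in implantation B against normal, 3 and 2 in implantation A against defect, and 3 and 4 in ECs+ implantation against implantation B. Their median log2 fold change ran from -0.282 (implantation B against normal) to 0.168 (implantation A against defect). In ECs+ implantation against implantation B, PBX3 at 1.10 ± 0.0722 (SE, edgeR adjusted p = 1.54e-19) and PBX2 at 0.63 ± 0.0452 (SE, edgeR adjusted p = 1.05e-17) were higher.

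Polycomb complexes keep HOX genes silent outside their domain and trithorax proteins keep them active. Of 22 such regulators, 4 were higher and 10 lower in defect than in normal, 7 and 11 in implantation A, and 9 and 11 in implantation B against normal, while 9 and 4 were so in implantation A against defect and 8 and 7 in ECs+ implantation against implantation B. KMT2D (-0.66) and KMT2A (-0.92), both trithorax-type enzymes, were lower in the last comparison (edgeR adjusted p = 1.66e-27 and 2.1e-24). Against normal, MEN1 was lower in implantation A (-0.70) and implantation B (-0.86), as was PHC1 (-0.60 and -0.78). The medians of the list ran from -0.123 to 0.149. The count of higher genes fell from 7 to 4 in implantation A against normal without implantation A 2 or normal 2, and from 9 to 4 and 5 in implantation B against normal without normal 2 or normal 3. In implantation A against defect the count of lower genes fell to 0, 1 and 0 without implantation A 1, 2 and 3. The higher counts of this list also moved with the scaling of the libraries, from 8 to 15 between ECs+ implantation and implantation B when library size alone was used, which shifts the median of all genes by 0.238.

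Retinoic acid, made by ALDH1A enzymes, turns on 3′ HOX genes in the embryo. Of 14 tested genes of retinoic acid and CDX inputs, 9 were higher and 5 lower in defect than in normal, 9 and 5 in implantation A, and 8 and 5 in implantation B against normal. In implantation A against defect 3 were higher and 5 lower, and in ECs+ implantation against implantation B 4 were higher and 10 lower. The medians were 0.669, 0.634, 0.821, -0.121 and -0.749 in that order. In implantation A against defect, 1 gene was higher without implantation A 1. ALDH1A2, the main embryonic enzyme, was 370.2 CPM in ECs+ implantation and 74.9 in implantation B, at 2.27 ± 0.0341 (SE, edgeR adjusted p = 2.22e-47). CRABP2, a binding protein that carries retinoic acid to the nucleus, was lower there at -1.94 ± 0.0677 (SE, edgeR adjusted p = 2.9e-31), and higher in implantation B than in normal at 1.89 ± 0.0722 (SE, edgeR adjusted p = 2.17e-37).

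Among 32 other transcription factors of body position, 29 were tested outside the ECs+ comparison. Of these 16 were higher and 8 lower in defect than in normal, 17 and 7 in implantation A, 18 and 5 in implantation B against normal, and 4 and 10 in implantation A against defect. Between ECs+ implantation and implantation B, 1 of 27 was higher and 22 lower (4 higher with library size alone), with a median of -0.814, among them SIX2 at -2.42 ± 0.0727 (SE, edgeR adjusted p = 1.29e-34) and TBX3 at -1.17 ± 0.0335 (SE, edgeR adjusted p = 1.6e-34). PRRX1, a mesenchymal factor, was higher in implantation B than in normal at 1.51 ± 0.0499 (SE, edgeR adjusted p = 1.38e-39). Of the signals that drive the genital tubercle, 11 were tested outside the ECs+ comparison, with 5 higher and 2 lower in defect than in normal, 8 and 1 in implantation A, 8 and 3 in implantation B against normal, 4 and 2 in implantation A against defect, and 2 of 10 higher and 8 lower in ECs+ implantation against implantation B. In implantation B against normal, 1 was lower without implantation B 1 or normal 1. The median was -0.64 in ECs+ implantation against implantation B and 0.128 to 0.565 in the others. WNT5A, a signal of tubercle outgrowth, was 10.7 CPM in normal, 20.7 in implantation A and 40.9 in implantation B, at 1.94 ± 0.0855 (SE, edgeR adjusted p = 9.14e-34) for the last. Without defect 3, each of these lists had at most 4 genes higher and 6 lower in the comparisons with defect. The shares of all genes called in each comparison, given above, are the background for these counts.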

How the data were processed

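Polyadenylated RNA of 15 pig corpus cavernosum samples was sequenced from TruSeq libraries, per the labels' protocols. Per the submitters' processing notes, fastp, HISAT2, HTSeq and DESeq2 were used with Sscrofa11.1; no settings are listed. The authors deposited raw gene counts and TPM values for the same genes. The tool behind the TPM values is not stated in the labels. The members and all lists were chosen with earlier results of these data known.

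Counts were fitted with edgeR 4.0.16 in R 4.3.3 (filterByExpr, TMM scaling, robust quasi-likelihood F test, two-sided, Benjamini-Hochberg over all genes of the fit, threshold 0.05). Normal, defect and implantation A shared a fit of 9 libraries, ECs+ implantation and implantation B had a fit of 6, and implantation B against normal used all 15. The SE is a Wald error. Levels of single genes are CPM with TMM factors of all 15 libraries, and marker sums are CPM without them. The fit weights libraries by depth, so a fold change in defect need not equal a quotient of group means.

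Values in every library were given for the 3 members of each cluster with the highest mean TPM and up to 3 in each direction of each comparison with the largest called change, and up to 3 genes of smallest p were named of each list, except that some genes are counted but not reported here by name or value. Alternatives were DESeq2 1.42.0, limma 3.58.1 (voom with quality weights, and trend on log2 of TPM plus 1 or 0.1), other scalings, filters and sets of libraries, a replicate block and leaving out each library. DESeq2 and limma without the 2 shallow libraries were added after seeing the data. The count fit was tested on simulated counts with 200 changed genes, all others equal between groups and the same spread for every gene. In defect vs normal it recovered 60.6% of changes of 1.5 times, 83.6% of 2 times and 93.8% of 4 times. The real comparisons called 41.8% to 75.8% of genes, so the simulation cannot show how the fit does with so many changes.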

Additional observations from a re-analysis of the deposited data

How the results depend on the processing

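Most changes with the processing came in comparisons that use defect 1 and 2. Of HOX genes higher in defect vs normal, 12 as reported, DESeq2 called 5 and limma on log2(TPM + 1) and log2(TPM + 0.1) called 0 and 0. Calls over all genes also fell. Of 17855 genes, 5715 were higher as reported, 3477 with DESeq2 and 2565 and 2517 on the TPM scales. In implantation A vs defect (10 higher, 4 lower), library size alone gave 17 and 1, voom with quality weights 2 and 1, DESeq2 0 lower and both TPM scales 0 lower, while log2(TPM + 1) without the shallow libraries gave 18 higher. Over all genes that comparison had 3642 higher and 3823 lower as reported, 7931 and 1761 with library size alone, and 521 and 1220 with voom. The lower calls over all genes were 1889 with DESeq2 and 958 and 894 on the TPM scales. In implantation A vs normal, DESeq2 called 3 HOX genes higher, log2(TPM + 1) 0 higher and 5 lower, and log2(TPM + 0.1) 0 and 4. Over all genes, 5755 were higher and 5767 lower as reported, 3345 higher with DESeq2, and 2198 and 1088, and 2028 and 878, on the TPM scales. In implantation B vs normal the TPM scales gave 7 and 2 HOX genes higher, and in ECs+ implantation vs implantation B library size alone gave 14 higher. The higher calls over all genes went from 6796 to 3646 and 3377 in the first and from 6501 to 8687 in the second. Other HOX counts stayed within 1.5 times. Library size alone shifted the median of all genes by -0.366 in defect vs normal, 0.305 in implantation A vs defect, 0.238 in ECs+ implantation vs implantation B and -0.311 in implantation B vs normal.

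Leaving out 1 library gave 1 to 12 HOX genes higher and 10 to 13 lower in defect vs normal, 4 to 9 and 0 to 5 in implantation A vs defect, 11 to 13 and 15 to 15 in implantation A vs normal, 9 to 10 and 13 to 14 in ECs+ implantation vs implantation B, and 11 to 14 and 15 to 16 in implantation B vs normal. In the same order, the calls over all genes were 1391 to 6057 higher and 2130 to 5893 lower, 935 to 3570 and 520 to 3986, 5377 to 6019 and 5196 to 5812, 6148 to 6479 and 6324 to 6537, and 5559 to 7023 and 6176 to 7884.

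The direction was followed for named HOX genes called in a comparison and for HOXD13. In defect vs normal HOXD13 turned to -0.12 with DESeq2, -0.21 with library size alone, -0.25 with voom, -0.80 and -0.86 on log2(TPM + 1) and log2(TPM + 0.1), -0.0023 on log2(TPM + 1) without the shallow libraries and -0.82 without defect 3. On log2(TPM + 1) there, HOXB13 turned to -0.61, HOXC4 to -0.10, HOXC10 to -0.040, HOXC11 to -0.014 and HOXC13 to -0.13. On log2(TPM + 0.1), HOXB13 turned to -2.23, HOXC4 to -0.93, HOXC9 to -0.44, HOXC10 to -1.30, HOXC11 to -0.64 and HOXC13 to -0.93. Without defect 3, HOXA13 turned to -0.25, HOXB13 to -6.81, HOXC4 to -5.97, HOXC9 to -4.99, HOXC10 to -6.61, HOXC11 to -6.58 and HOXC13 to -5.59. The highest values without any 1 library were HOXA13 0.98, HOXB13 1.42, HOXC4 1.64, HOXC9 3.31, HOXC10 2.79, HOXC11 2.06, HOXC13 1.74 and HOXD13 0.20. The negative sizes depend on the prior count, since most of the genes then had 0 counts in defect. In implantation A vs defect, HOXB5 turned to -0.078 with voom, HOXA13 to 0.12 and 0.15 and HOXC10 to 1.17 and 3.10 on the TPM scales, and HOXA13 to 0.79 and HOXC10 to 8.38 without defect 3, where the lowest values without any 1 library were HOXA13 -0.45 and HOXC10 -0.84. In ECs+ implantation vs implantation B, HOXB2 turned to 0.055 with library size alone and HOXD13 to -0.17 and -0.17 on the TPM scales. In implantation B vs normal HOXD10 turned to -0.085 with library size alone. In implantation A vs normal 0 turned.

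These shares differed by more than 1 SD when computed from CPM in place of TPM. Paralogues 9 to 13 held 51.2% in normal, 61.5% in implantation A, 68.6% in implantation B and 59.4% in ECs+ implantation. HOXC held 0.471%, 1.89% and 1.83% in normal, implantation A and implantation B, HOXB 17.6%, 10.5% and 9.17% there and 19.6% in ECs+ implantation, and HOXD 33.1%, 36% and 39.7% in the same groups and 42.9% in ECs+ implantation. HOXA held 51.2% in defect and 37.3% in ECs+ implantation. The other cluster shares and that of paralogues 9 to 13 in defect moved by less than 1 SD. Apart from what the alternatives themselves change, such as the libraries left out, the cause was not tested.

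Deviations of same-numbered libraries from their group means correlated at -0.0225 to 0.035, and those of differently numbered libraries at -0.0438 to 0.048. Whether the numbers mark pairs cannot be decided from this. The spread within groups could be technical, and pairs would then leave no shared deviation. With the replicate number as a block, 9 HOX genes were higher and 3 lower in implantation A vs defect, where HOXA10 (adjusted p = 0.0569) and HOXC10 (0.139) lost their call, and 10 and 13 in ECs+ implantation vs implantation B, where HOXB2 (0.0573) lost and HOXD13 (0.0425) gained one. The block gave 12 and 13 in defect vs normal, 12 and 15 in implantation A vs normal and 13 and 15 in implantation B vs normal. Of all genes, the block called 3180 higher and 3082 lower in implantation A vs defect and 6452 and 6505 in ECs+ implantation vs implantation B. It called 5275 and 5388, 5623 and 5638, and 6754 and 6677 in the other comparisons, in the order just given.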

Other observations

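RefSeq places further genes inside the HOX loci. Those named here were chosen after their values were seen. In HOXC, LOC110260669, a noncoding gene that overlaps HOXC6 (chromosome 5, 19229897 to 19243843), stood at 1.12 CPM in normal, 4.11 in implantation A, 3.2 in implantation B and 0.2 in ECs+ implantation, with an edgeR log2 fold change of 1.86 (adjusted p = 1.95e-11) in implantation A vs normal and -3.99 (adjusted p = 7.38e-13) in ECs+ implantation vs implantation B. LOC110260668 (chromosome 5, 19194155 to 19197371), which overlaps no HOX gene and lies between HOXC11 and HOXC10, stood at 0.173, 1.01, 1.71 and 0.0174 CPM in the same groups, at 2.48 (adjusted p = 4.42e-07) and -6.13 (adjusted p = 2.35e-11). In HOXB, LOC102166259, which overlaps HOXB5 and HOXB6 (chromosome 12, 24838726 to 24858994), stood at 7.38, 3.37, 2.47 and 8.27 CPM, at -1.13 (adjusted p = 1.6e-09) and 1.70 (adjusted p = 8.75e-13). Reads of overlapping genes may have been shared, so these partners are not separate evidence.

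In HOXA, LOC102160006, a noncoding gene between HOXA13 and HOXA11 (chromosome 18, 45384466 to 45388260), did not move as its neighbours did. It stood at 37.2 CPM in normal, 23.2 in implantation A, 26.7 in implantation B and 33.1 in ECs+ implantation. Its log2 fold change was -0.68 (adjusted p = 2.45e-12) in implantation A vs normal, -0.48 (adjusted p = 3.8e-08) in implantation B vs normal and 0.28 (adjusted p = 0.000501) in ECs+ implantation vs implantation B (edgeR), where HOXA13 and HOXA11 had the opposite signs. On the log2(TPM + 1) scale LOC102160006 kept its direction and lost these calls (adjusted p = 0.241, 0.0677 and 0.0961), the first 2 of which returned without the shallow defect libraries.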
